A study of Homo sapiens with 35 samples.

Results

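The comparison set BA medium against E6 medium at 30, 36 and 42 h, which takes 6 of the series' 35 libraries: BA at 30, 36 and 42 h and E6 at the same hours. The 6 were chosen by their labelled medium and hour, with 1 library in each medium at each hour and the hour as a covariate, so that the 3 hours stand in for replicates of a medium. All are poly(A) RNA of the human embryonic stem cell line H9, a single established line, kept in E8 medium on Matrigel and then seeded as single cells into the medium under test. BA is E6 with BMP4 and Activin A added at 40 ng/mL each; E6 carries neither, and the labels call it the control for spontaneous differentiation. E8, the pluripotency control sampled at the same hours, also had no BMP4 or Activin A added. It is used below as a further level, in an alternative fit and for its library of 36 h, and is not taken as free of other signals. The labels do not say whether the libraries came from separate cultures. With the hour as a covariate, p-values of the comparison measure how the BA to E6 difference varied between the 3 hours. That spread includes any change of the difference over time, but not a change that both media share.

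BMP4 and Activin A are secreted ligands of the TGF-beta superfamily. BMP4 binds type I and type II receptors that phosphorylate SMAD1, SMAD5 and SMAD9, Activin A binds receptors that phosphorylate SMAD2 and SMAD3, and both sets of SMAD proteins join SMAD4 to drive target genes. In the embryo, BMP, Nodal (which uses the Activin receptors), WNT and FGF signals act together on the epiblast to form the primitive streak, where cells leave the epithelium and become mesoderm or definitive endoderm.

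Levels are given as CPM, counts scaled to the library total with TMM factors, in the order 30, 36 and 42 h. They are not scaled by transcript length, so they compare libraries for 1 gene and not genes with each other. The 6 libraries held between 11793453 and 22115047 counts. A gene was called where edgeR's quasi-likelihood test gave a Benjamini-Hochberg adjusted p below 0.05 over all 16724 genes tested. A filter on low counts first kept genes above a minimum level in enough libraries to fill 1 medium. A gene near 0 in E6 was thus tested only where BA was high, and its direction was fixed by that filter. In bulk RNA, fewer cells of a type and less RNA per cell cannot be told apart.

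The BA library of 42 h stood apart from its neighbours in time. Of 12076 genes with a mean of at least 5 CPM, 368 lay more than 2-fold from the mean of the BA libraries taken 6 h before and 6 h after it; by the same measure it was 5 genes in BA at 30 h, 77 in BA at 36 h and 5 to 8 in the E6 libraries. In that library the epithelial list lay lower (median log2 deviation -0.99), the hypoxia and glycolysis list higher (0.75) and the ATF4 stress list lower (-0.90), and mitochondrial transcripts took 1.35% of counts, against 1.81% to 2.25% in the other 5. Counts of called genes, overall and by list, are given with and without the 42 h pair. The fit without that pair has 1 residual degree of freedom and gave no gene a variance of its own. Its calls therefore come easily, and its counts describe that fit rather than check the 42 h library. The part of that library's state in the results was not tested.

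In all, 3778 of 16724 genes differed between BA and E6, which is 22.6% of those tested. In BA 1966 genes were higher, 11.8% of those tested, and 1812 were lower, 10.8%, with 1243 and 1108 changed at least 2-fold (1483 and 1224 without the 42 h pair). The median log2 change of all tested genes was 0.01. In 3589 of the 3778 called genes, all 3 libraries of 1 medium lay above all 3 of the other; the same held for 38.6% of all tested genes. Without the 42 h pair the count was 4507, and 3531 of the 3775 genes called with all hours and tested without that pair were called again in the same direction, with 0 reversed. That fit gave no gene a variance of its own, so a repeated call there is weak support. Without the 36 h pair the count fell to 1154, 728 of them higher and 426 lower in BA, and 1146 of the 3778 genes called with all 6 libraries were called again. Loss of a call with an hour left out was thus common among all called genes, and the counts by list below are to be read beside it.

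Of 445 genes in 28 lists of cell type markers and pathway genes, 369 passed the filter on low counts and 210 were called, 144 higher and 66 lower in BA (56.9%, against 22.6% of all genes). The lists were drawn up with earlier results of these data known, so this share describes the lists and is no test of them.

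**Figure D1:**
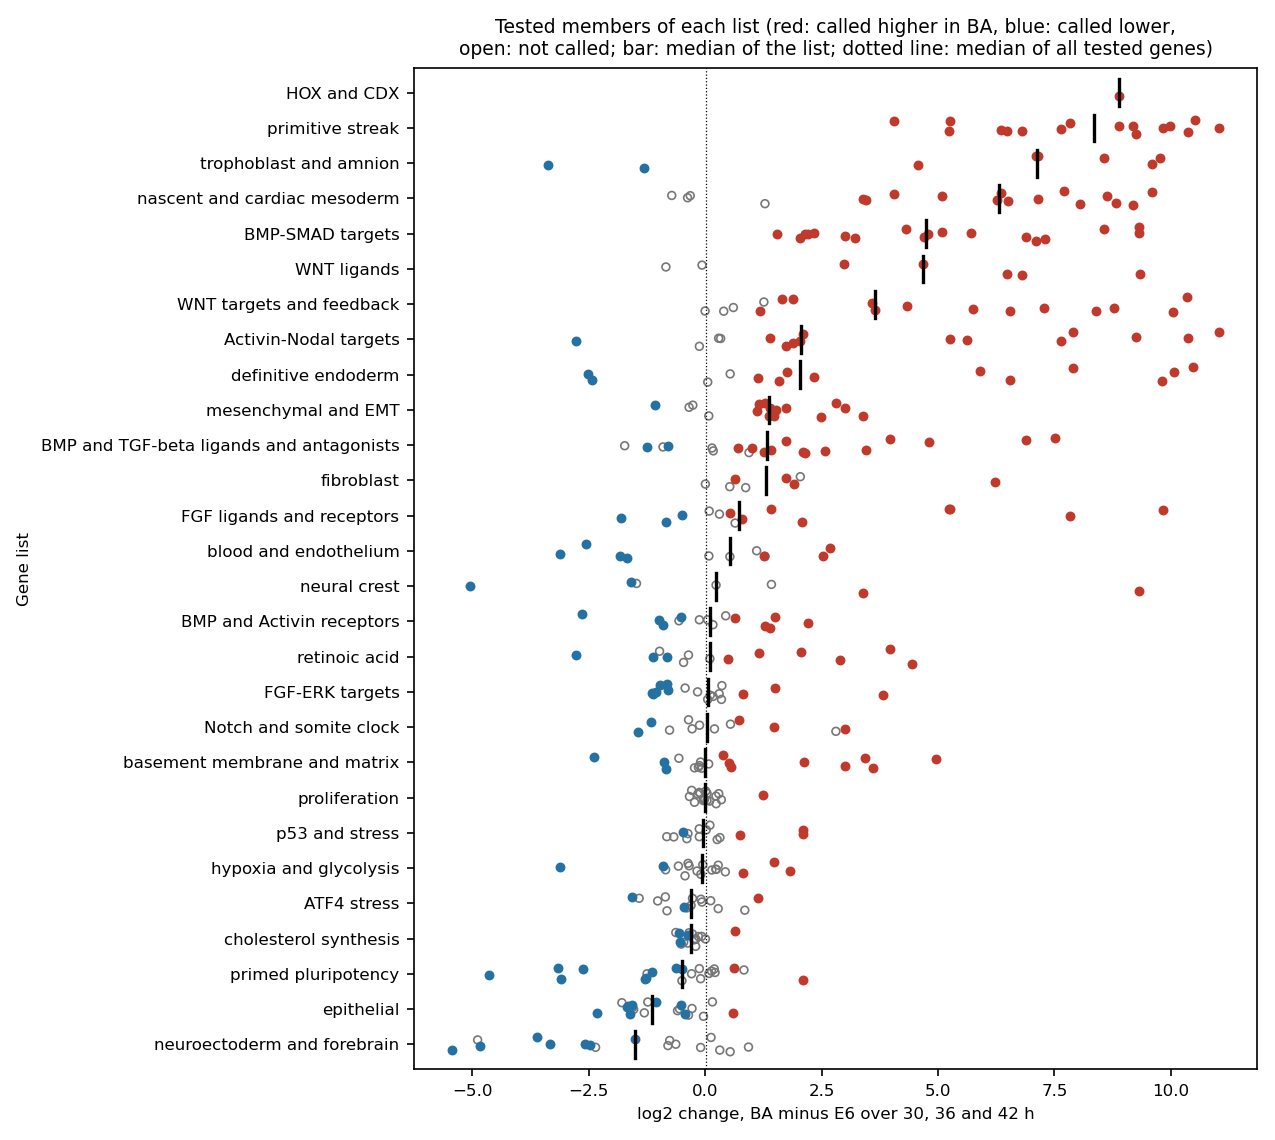
Log2 change from E6 to BA (x axis) of each tested gene in 28 lists (y axis, ordered by the list's median, the black bar). Red points were called higher in BA and blue points lower at an adjusted p below 0.05, and open points were not called; the primitive streak and BMP-SMAD target lists hold red points only, while the neuroectoderm list has no red point.

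Direct targets of BMP signalling were higher in BA. All 18 genes of the BMP-SMAD target list were tested and all 18 were called higher, against 11.8% of all tested genes. Their median log2 change was 4.74, against 0.01 over all genes. Members near 0 in E6, such as MSX1, MSX2 and GATA3, passed the filter only through their BA levels. For them the direction was fixed beforehand and is no test. All 18 were also called higher without the 42 h pair, and 15 were called with each of the hours left out in turn. The inhibitory SMAD gene SMAD6, whose product blocks BMP receptor signalling as negative feedback, stood at 179.9, 309 and 182 CPM in BA against 3.44, 3.18 and 6.42 CPM in E6 (log2 difference 5.71 ± 0.33 SE, adjusted p = 0.000107). BAMBI, which encodes a decoy receptor without a kinase domain, stood at 337, 383 and 190.1 CPM in BA against 15.5, 12.4 and 7.58 CPM in E6 (log2 difference 4.69 ± 0.14 SE, adjusted p = 9.03e-06). ID3, one of the inhibitors of DNA binding that block bHLH factors, measured 248, 195 and 110.4 CPM in BA against 49.4, 39.4 and 21.7 CPM in E6 (log2 difference 2.34 ± 0.10 SE, adjusted p = 3.39e-05). In each of the 3 genes the lowest BA library lay above the highest E6 library.

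The inhibitor of differentiation genes differed in size. ID1 rose 9.29-fold (adjusted p = 0.00254, up to 0.0833 with an hour left out), ID4 4.43-fold (adjusted p = 0.000870) and ID2 2.90-fold (adjusted p = 0.0185, up to 0.215 with an hour left out). ID1 measured 145, 102 and 44.7 CPM in BA against 8.03, 8.88 and 12.7 CPM in E6, so that its BA level was lowest at 42 h while the E6 level was highest there. The homeobox genes MSX1 and MSX2, which respond to BMP in many embryonic tissues, were near absent in E6. MSX2 stood at 164, 144 and 63.01 CPM in BA against 0.229, 0 and 0.417 CPM in E6 (log2 difference 9.31 ± 0.47 SE, adjusted p = 6.03e-05). MSX1 stood at 54.2, 77.4 and 21.8 CPM in BA against 0.184, 0 and 0 CPM in E6 (log2 difference 9.32 ± 0.44 SE, adjusted p = 4.77e-05). GATA3, a zinc finger factor that BMP switches on in early ectoderm and trophoblast, stood at 177, 154 and 41.3 CPM in BA against 0.505, 0.240 and 0.250 CPM in E6 (log2 difference 8.56 ± 0.25 SE, adjusted p = 8.93e-06). Most of these genes were lowest in the 42 h library within BA: the median per-hour difference of the list was 3.63 at 30 h, 3.70 at 36 h and 2.27 at 42 h, on the log2 scale after adding 1 CPM.

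As the BMP targets were all called higher in BA, their promoters were searched for GGCGCC, a GC-rich sequence bound by SMAD1 and SMAD5. It reads the same on both strands. RefSeq promoter windows (GRCh38.p14, 250 bases before to 50 after the gene start) matched 14 of the 18 genes. GGCGCC was found in 3 of the 14 windows (21.4%), BAMBI, BMPER and GATA3, and in 19% of all 27305 windows. The 250 bases before the start of these 3 genes are shown with each match in capitals, BAMBI at chr10:28677271-28677520 (plus strand), BMPER, whose product binds and modulates BMPs, at chr7:33904665-33904914 (plus strand). GATA3 stood at chr10:8045083-8045332 (plus strand).
BAMBI: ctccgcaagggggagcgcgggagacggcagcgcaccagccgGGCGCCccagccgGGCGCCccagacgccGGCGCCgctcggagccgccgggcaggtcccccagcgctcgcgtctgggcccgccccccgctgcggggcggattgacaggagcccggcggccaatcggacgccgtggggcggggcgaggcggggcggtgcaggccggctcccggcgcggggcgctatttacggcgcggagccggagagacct
BMPER: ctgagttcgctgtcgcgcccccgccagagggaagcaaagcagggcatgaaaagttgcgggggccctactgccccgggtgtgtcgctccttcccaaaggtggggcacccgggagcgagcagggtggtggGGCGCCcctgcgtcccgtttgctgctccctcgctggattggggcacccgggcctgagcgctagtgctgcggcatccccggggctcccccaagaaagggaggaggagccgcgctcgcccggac
GATA3: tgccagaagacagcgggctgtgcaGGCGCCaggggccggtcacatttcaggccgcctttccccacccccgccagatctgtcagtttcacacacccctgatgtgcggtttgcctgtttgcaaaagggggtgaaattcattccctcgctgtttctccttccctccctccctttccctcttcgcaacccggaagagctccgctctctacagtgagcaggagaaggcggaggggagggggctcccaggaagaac
The BAMBI sequence holds 3 matches and the other two hold 1 each. CAGAC, the core of the SMAD-binding element, was searched on both strands and found in 5 of the 14 windows (35.7%) and in 45% of all windows. TCACACCT (T-box), CTTTGAT (TCF and LEF) and AATCCACA (FOXH1), searched on both strands, were found in 0 of the 14 windows, and in 0.982%, 2.64% and 0.798% of all windows. These shares describe the windows only. The 3 genes shown differed in course within BA: BMPER stood at 11.46, 70.2 and 119.6 CPM in BA against 0.229, 0.420 and 0.417 CPM in E6, highest at 42 h, while BAMBI and GATA3 were lowest at 42 h.

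Of 26 genes for BMP and TGF-beta ligands and their secreted antagonists, 20 were tested, 13 were called higher and 2 lower in BA (median log2 change 1.34), and 14 higher and 2 lower without the 42 h pair. The ligand gene BMP4, whose protein had also been added to the medium, stood at 12.2, 30.9 and 51.6 CPM in BA against 1.74, 1.92 and 4.50 CPM in E6 (log2 difference 3.46 ± 0.25 SE, adjusted p = 0.000222). BMP2, its closest relative, stood at 41.1, 149 and 283 CPM in BA against 2.98, 3.42 and 8.42 CPM in E6 (log2 difference 4.80 ± 0.31 SE, adjusted p = 0.000160). Both were higher in BA at each hour and highest there at 42 h. TGFB1, which encodes the ligand TGF-beta 1, rose 15.7-fold (adjusted p = 8.33e-06). Antagonist genes rose beside them. NOG, which encodes the BMP antagonist noggin, stood at 49.6, 30.3 and 4.49 CPM in BA against 0.367, 0.180 and 0.167 CPM in E6 (log2 difference 6.90 ± 0.35 SE, adjusted p = 6.45e-05). FST, which encodes the Activin-binding protein follistatin, rose 3.34-fold (adjusted p = 0.00366, up to 0.0894 with an hour left out). The 2 genes called lower were CHRDL1, a chordin-like antagonist (2.39-fold, adjusted p = 0.000962), and the ligand gene GDF11 (1.75-fold, adjusted p = 0.0118, up to 0.116 with an hour left out).

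Receptor genes split. Of 16 genes for BMP and Activin receptors and co-receptors, 14 were tested, 5 were called higher and 4 lower (6 and 4 without the 42 h pair), and the median log2 change was 0.11. The BMP type II receptor gene BMPR2 measured 244, 285 and 196 CPM in BA against 48.6, 51.5 and 57.4 CPM in E6 (4.62-fold higher, adjusted p = 0.000221), with no overlap between media. The type I receptor genes ACVR1 and BMPR1A were 2.81-fold and 2.43-fold higher (adjusted p = 0.000534 and 0.00190; for BMPR1A up to 0.0601 with an hour left out). RGMA, a BMP co-receptor also known from axon guidance, fell from 34.01, 36.7 and 55.6 CPM in E6 to 4.73, 4.66 and 12.3 CPM in BA (log2 difference -2.63 ± 0.19 SE, adjusted p = 0.000232). The Activin receptor genes ACVR1B and ACVR2B showed no call (log2 differences -0.12 ± 0.11 SE and 0.05 ± 0.10 SE, adjusted p = 0.489 and 0.765), and ACVR2A was 1.56-fold higher (adjusted p = 0.0204, up to 0.148 with an hour left out).

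Targets of Activin and Nodal signalling rose in most cases. Of 16 genes, 12 were called higher and 1 lower (13 and 1 without the 42 h pair), with a median log2 change of 2.07. NODAL, the ligand gene that feeds back on its own expression, stood at 43.2, 24.9 and 10.02 CPM in BA against 0.826, 0.300 and 0.916 CPM in E6 (log2 difference 5.26 ± 0.47 SE, adjusted p = 0.000515). LHX1, a LIM homeobox gene of the anterior streak, rose from 0.688, 0.900 and 0.417 CPM in E6 to 41.3, 158 and 359.6 CPM in BA (log2 difference 7.64 ± 0.50 SE, adjusted p = 0.000168). Both were higher in each BA library than in any E6 library.

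LEFTY1, a Nodal antagonist, was the 1 gene of the list that fell, at 1.03, 0.969 and 2.49 CPM in BA against 10.6, 6.18 and 12.998 CPM in E6 (log2 difference -2.77 ± 0.26 SE, adjusted p = 0.000560). Its near-identical neighbour LEFTY2, at 2.42, 1.21 and 9.35 CPM in BA against 2.75, 2.22 and 3.08 CPM in E6, was not called (log2 difference 0.29 ± 0.46 SE, adjusted p = 0.721). Reads may have been split between the pair, so both levels are uncertain. TDGF1, the Nodal co-receptor, and SKIL, a SMAD repressor, were not called either (log2 differences -0.12 ± 0.12 SE and 0.33 ± 0.13 SE, adjusted p = 0.538 and 0.135).

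WNT ligand and target genes were higher in BA, whose labelled additions hold no WNT protein. Of 19 WNT ligand genes 7 passed the filter, and 5 were called, all higher in BA, with the same counts without the 42 h pair. For a ligand gene near 0 in E6 the direction was fixed by the filter. WNT3, the ligand gene required for streak formation in the mouse, stood at 180.04, 162 and 141 CPM in BA against 1.79, 1.26 and 1.33 CPM in E6 (log2 difference 6.80 ± 0.15 SE, adjusted p = 3.9e-06). WNT8A measured 37.7, 44.1 and 58.3 CPM in BA against 0.229, 0.420 and 1.08 CPM in E6 (log2 difference 6.49 ± 0.29 SE, adjusted p = 3.86e-05). WNT5B measured 135, 115 and 22.1 CPM in BA against 2.89, 3.90 and 2.67 CPM in E6 (log2 difference 4.68 ± 0.44 SE, adjusted p = 0.000602). WNT5A, a ligand of non-canonical WNT signalling, was higher in BA at each later hour, at 32.6, 169 and 517 CPM in BA against 15.6, 18.5 and 22.2 CPM in E6 (log2 difference 2.98 ± 0.62 SE, adjusted p = 0.0146, up to 0.195 with an hour left out). WNT9B had 0 counts in E6 and stood at 5.91, 4.48 and 2.61 CPM in BA, at least 74.4-fold higher when 3 counts over the E6 libraries are taken as the floor.

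Of 17 WNT target and feedback genes, 13 were called higher and 0 lower (median log2 change 3.65), and 16 higher and 0 lower without the 42 h pair. For members near 0 in E6, such as SP5, the direction was fixed by the filter. SP5, a zinc finger repressor that WNT switches on directly, stood at 146, 102 and 63.3 CPM in BA against 0.0918, 0.120 and 0 CPM in E6 (log2 difference 10.35 ± 0.26 SE, adjusted p = 5.71e-06). LEF1, the transcription factor that carries beta-catenin to its sites, stood at 74.4, 82.9 and 26.95 CPM in BA against 1.42, 1.20 and 0.750 CPM in E6 (log2 difference 5.76 ± 0.20 SE, adjusted p = 1.82e-05). DKK1, a secreted WNT antagonist, stood at 59.8, 87.01 and 60.7 CPM in BA against 0.138, 0.240 and 0.250 CPM in E6 (log2 difference 8.40 ± 0.21 SE, adjusted p = 5.71e-06). NOTUM, an enzyme that inactivates WNT proteins, had 1 count in all of E6 and 32.7, 29.9 and 17.5 CPM in BA, a ratio of 1365 (95% counting interval 245 to 53959). In every one of these genes the media did not overlap. AXIN2, a widely used reporter of canonical WNT activity, moved less, at 77.6, 64.7 and 50.1 CPM in BA against 25.3, 27.8 and 32.5 CPM in E6 (2.25-fold, adjusted p = 0.00608, up to 0.107 with an hour left out). SFRP1, which encodes a secreted frizzled-related WNT antagonist and is in none of the lists, fell 24.4-fold, from 1441, 1485 and 1710.3 CPM in E6 to 95.2, 50.2 and 51.3 CPM in BA (adjusted p = 8.67e-05).

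FGF genes moved in both directions. Of 15 ligand and receptor genes 14 were tested, 8 called higher and 3 lower (9 and 3 without the 42 h pair). The ligand gene FGF4 stood at 45.3, 37.2 and 104 CPM in BA against 0.138, 0.300 and 0.333 CPM in E6 (log2 difference 7.84 ± 0.26 SE, adjusted p = 1.33e-05). FGF17 had 1 count in E6 and stood at 4.73, 16.5 and 71.5 CPM in BA, a ratio of 1484 (95% counting interval 266 to 58633). FGF8, a ligand of the streak, had 3 counts in E6 and stood at 2.47, 1.45 and 3.76 CPM in BA, a ratio of 42.97 (95% counting interval 14.4 to 211). Among receptors, FGFR3 was 4.24-fold higher (adjusted p = 0.00114, up to 0.0513 with an hour left out), while FGFR2 and FGFR1 were 3.52-fold and 1.78-fold lower (adjusted p = 0.000825 and 0.00399; for FGFR1 up to 0.0746 with an hour left out). Of 17 target genes of FGF and ERK signalling, 3 were called higher and 6 lower (3 and 7 without the 42 h pair), with a median log2 change of 0.05. DUSP6, an ERK phosphatase, was 2.16-fold lower at 195, 149 and 41.5 CPM in BA against 419.7, 270.1 and 111 CPM in E6 (adjusted p = 0.00140). IER3, an early response gene, was 14.2-fold higher at 104, 117 and 112 CPM in BA against 11.4, 8.88 and 4.17 CPM in E6 (adjusted p = 0.000238).

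Primitive streak genes made the largest median rise of the 27 lists with more than 1 tested gene. Of 19 genes, 16 passed the filter, and all 16 of those were called higher in BA with no overlap between media (median log2 change 8.36, or 8.03 with GSC at its lower bound). Members near 0 in E6 passed the filter only through their BA levels, so for them the direction was fixed beforehand and is no test. TBXT, the brachyury gene (chromosome 6, 166157656 to 166168700, minus strand on GRCh38), stood at 274, 314 and 346 CPM in BA against 0.229, 0.240 and 0.500 CPM in E6 (log2 difference 9.97 ± 0.19 SE, adjusted p = 3.9e-06). EOMES, a T-box gene of the anterior streak (chromosome 3, 27715949 to 27722711, minus strand), stood at 752, 897 and 1138 CPM in BA against 0.964, 0.540 and 0.417 CPM in E6 (log2 difference 10.36 ± 0.29 SE, adjusted p = 7.39e-06). The homeobox gene MIXL1 (chromosome 1, 226223618 to 226227054, plus strand) stood at 838, 988 and 1155 CPM in BA against 1.84, 1.501 and 1.42 CPM in E6 (log2 difference 9.25 ± 0.20 SE, adjusted p = 3.9e-06). In BA each of the 3 was higher at 42 h than at 30 h, and in E6 none reached 2 CPM. In E8 at the same hours TBXT stood at 0.0504, 0.254 and 0.629 CPM, EOMES at 0.504, 0.572 and 3.65 CPM and MIXL1 at 0.908, 1.21 and 4.41 CPM. With each hour left out in turn, 15 of the 16 calls held.

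Other streak genes differed in course within BA. GSC, the homeobox gene of the organizer (chromosome 14, 94768216 to 94770230, minus strand), had 0 counts in the E6 libraries and stood at 5.91, 11.02 and 38.1 CPM in BA, at least 297-fold higher (adjusted p = 0.000282). EVX1, a homeobox gene of the posterior streak, stood at 227, 212 and 67.6 CPM in BA against 0.138, 0.120 and 0.0833 CPM in E6 (log2 difference 10.52 ± 0.20 SE, adjusted p = 3.9e-06). CDX1, a caudal homeobox gene with 2 counts in E6, stood at 28.7, 25.4 and 6.13 CPM in BA, a ratio of 519.5 (95% counting interval 143 to 4295). GSC was highest at 42 h, while EVX1 and CDX1 were lowest there. The smallest fitted change in the list was that of TBX6, a T-box gene of the presomitic mesoderm, at 1.80, 10.4 and 47.4 CPM in BA against 0.367, 0.960 and 0.9998 CPM in E6 (log2 difference 4.06 ± 0.54 SE, adjusted p = 0.00240, up to 0.0656 with an hour left out). WNT3A, CDX2 and MSGN1 did not pass the filter: CDX2 had 112 counts in BA, at 4.06, 1.94 and 0.0607 CPM, and 1 count in E6.

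**Figure D2:**
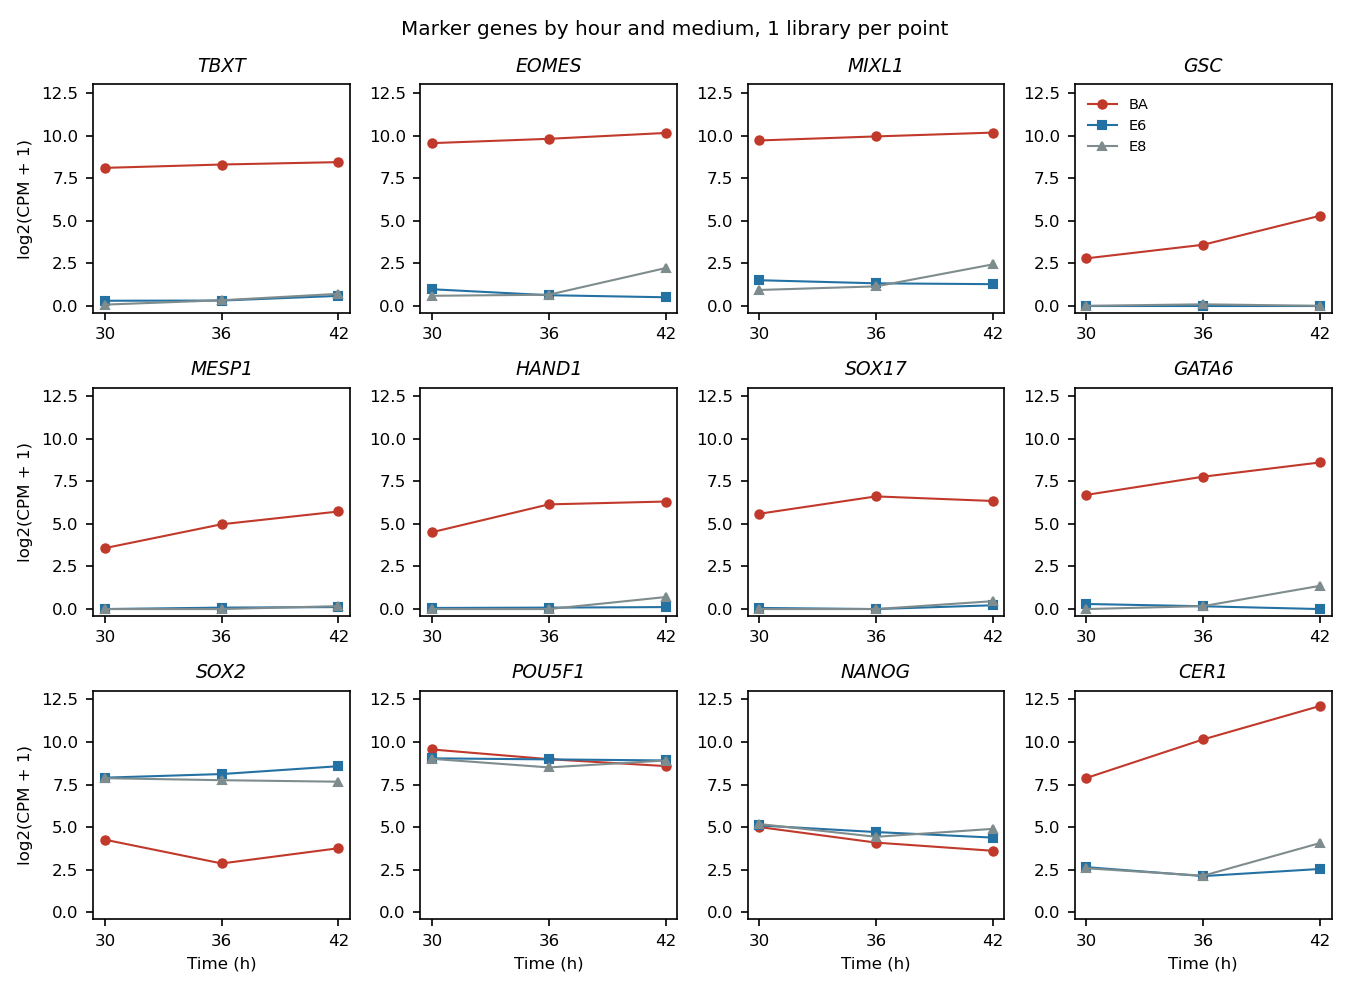
Level of 12 marker genes, as log2(CPM + 1) on the y axis, at 30, 36 and 42 h (x axis) in BA (red circles), E6 (blue squares) and E8 (grey triangles), with 1 library per point. Streak, mesoderm and endoderm genes lie higher in BA than in E6 at each hour. In E6 they lie below 1 CPM, apart from MIXL1 and CER1. SOX2 is low in BA, and POU5F1 and NANOG overlap between media.

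Nascent and cardiac mesoderm genes rose as well. Of 23 genes 18 were tested, and 14 were called higher and 0 lower (median log2 change 6.31). Over all tested genes, 11.8% were called higher. Without the 42 h pair 15 were higher and 0 lower, and 11 calls held with each hour left out. Members near 0 in E6, such as MESP1 and HAND1, passed the filter only through BA. Their direction was thus fixed beforehand and is no test. MESP1, the earliest marker of cardiac mesoderm, had 2 counts in E6 and stood at 10.95, 30.6 and 52.1 CPM in BA, a ratio of 758 (95% counting interval 209.5 to 6265). HAND1, a bHLH factor of heart and extraembryonic mesoderm, had 3 counts in E6 and stood at 21.8, 69.9 and 78.6 CPM in BA, a ratio of 922 (95% counting interval 315 to 4473). TBX3, a T-box factor, stood at 179, 381 and 200.2 CPM in BA against 0.688, 0.780 and 0.333 CPM in E6 (log2 difference 8.62 ± 0.22 SE, adjusted p = 5.71e-06). None of the 3 genes reached 1 CPM in any E6 library.

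Of the receptor genes of early mesoderm, APLNR and PDGFRA were higher in BA at each later hour. APLNR, the receptor for the peptides apelin and ELABELA, stood at 463, 1311 and 3333 CPM in BA against 5.92, 4.92 and 2.75 CPM in E6 (log2 difference 8.04 ± 0.73 SE, adjusted p = 0.000544). PDGFRA, the receptor that marks paraxial and cardiac mesoderm, stood at 7.71, 51.8 and 205 CPM in BA against 1.38, 1.26 and 1.75 CPM in E6 (log2 difference 5.08 ± 0.73 SE, adjusted p = 0.00326, up to 0.103 with an hour left out). KDR, a VEGF receptor present in stem cells and in mesoderm, stood at 182, 193 and 437 CPM in BA against 144, 101 and 71.5 CPM in E6 and was not called (log2 difference 1.29 ± 0.40 SE, adjusted p = 0.0617). TBX5, a later heart factor, stood at 8.43, 4.18 and 0 CPM in BA against 5.69, 4.44 and 1.75 CPM in E6 and was not called (adjusted p = 0.798).

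Definitive endoderm genes moved in both directions. Of 16 genes 14 were tested, 10 called higher and 2 lower (median log2 change 2.05; 9 and 2 without the 42 h pair), and 5 of the 12 calls held with each hour left out. SOX17, the defining factor of early endoderm (chromosome 8, 54457935 to 54460888, plus strand), had 3 counts in E6 and stood at 47.4, 97.1 and 80.4 CPM in BA, a ratio of 1235 (95% counting interval 422 to 5991). GATA6 (chromosome 18, 22169443 to 22202528, plus strand) stood at 103, 218 and 389.9 CPM in BA against 0.229, 0.120 and 0 CPM in E6 (log2 difference 10.47 ± 0.41 SE, adjusted p = 2.62e-05). GATA4 stood at 7.51, 24.9 and 53.4 CPM in BA against 0, 0 and 0.0833 CPM in E6, with 1 count in E6 and a ratio of 1382 (95% counting interval 248 to 54643). CER1, which encodes the Nodal, BMP and WNT antagonist cerberus, rose to 236, 1138 and 4442 CPM in BA against 5.28, 3.36 and 4.83 CPM in E6 (log2 difference 7.89 ± 0.87 SE, adjusted p = 0.00110, up to 0.0576 with an hour left out).

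FOXA2, the forkhead factor of endoderm and floor plate, went the other way: it stood at 0.257, 0.908 and 1.88 CPM in BA against 5.42, 3.54 and 5.92 CPM in E6 (log2 difference -2.42 ± 0.47 SE, adjusted p = 0.0117, up to 0.117 with an hour left out). FOXA1 did not pass the filter, with 0.720, 0.424 and 0.243 CPM in BA and 0 in each E6 library. CXCR4, the chemokine receptor used to sort endoderm, measured 1.29, 2.97 and 4.98 CPM in BA against 0.597, 0.840 and 1.08 CPM in E6 (3.36-fold, adjusted p = 0.00673, up to 0.104 with an hour left out). HHEX, of the anterior endoderm, measured 0.360, 1.76 and 4.80 CPM in BA against 0.275, 0.240 and 0.583 CPM in E6 (5.08-fold, adjusted p = 0.0171, up to 0.190 with an hour left out). The media overlapped for HHEX and not for CXCR4, and both were lowest in BA at 30 h.

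Markers of trophoblast and amnion, cell types that BMP4 can also bring about in stem cells, moved in both directions. Of 16 genes 8 were tested, 6 were higher and 2 lower in BA (7 and 2 without the 42 h pair), and the summed level of the list was 165.4 to 393 CPM in BA and 11.7 to 17.3 CPM in E6. TFAP2A, an AP-2 factor of surface ectoderm and amnion, was lower in BA at each later hour and stayed above E6, at 112, 76.2 and 17.7 CPM in BA against 0, 0.180 and 0.0833 CPM in E6 (log2 difference 9.77 ± 0.47 SE, adjusted p = 4.77e-05). GATA2 showed the same order, at 36.8, 33.3 and 11.7 CPM in BA against 0.184, 0.120 and 0.333 CPM in E6 (log2 difference 7.10 ± 0.43 SE, adjusted p = 0.000124), and ISL1, a LIM homeobox gene shared with cardiac mesoderm, stood at 16.8, 44.3 and 9.77 CPM in BA against 0.138, 0.180 and 0.167 CPM in E6 (log2 difference 7.14 ± 0.33 SE, adjusted p = 4.62e-05). HAND1 and ISL1 are also in the mesoderm list, and GATA2 and GATA3 in the BMP target list. IGFBP3 and GABRP were lower in BA (10.4-fold and 2.47-fold, adjusted p = 0.000371 and 0.0232; for GABRP up to 0.138 with an hour left out). CGA, ELF5, TP63, KRT7, VTCN1 and WNT6 did not pass the filter, and CGA and ELF5 had 0 counts in all 6 libraries. The part of trophoblast or amnion cells in the results on BMP targets and mesoderm was not tested. Of 17 HOX and CDX genes only CDX1 passed the filter (3 without the 42 h pair, all called higher). With E6 near 0, these genes could pass it only through BA, so their direction was fixed. HOXB9 stood at 1.29, 1.998 and 0 CPM in BA and at 0 in each E6 library.

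Pluripotency genes moved in both directions, most of the called ones downward. Of 21 primed pluripotency genes, all tested, 9 were lower and 2 higher in BA (median log2 change -0.49; 9 and 3 without the 42 h pair), and 7 of the 11 calls held with each hour left out. SOX2, shared by pluripotent and neural cells (chromosome 3, 181711924 to 181714436, plus strand), was 25.05-fold lower, at 18.2, 6.30 and 12.6 CPM in BA against 239, 277 and 382 CPM in E6 (log2 difference -4.65 ± 0.34 SE, adjusted p = 0.000236). PRDM14, a repressor that protects the pluripotent state, was 8.52-fold lower at 14.7, 13.4 and 18.5 CPM in BA against 131, 135 and 132 CPM in E6 (adjusted p = 3.75e-05). USP44, a histone deubiquitinase, was 8.94-fold lower at 43.1, 16.4 and 53.1 CPM in BA against 347, 300.2 and 280.2 CPM in E6 (adjusted p = 0.000817). Media did not overlap in these 3 genes. TERF1, a telomere-binding protein gene, and DNMT3B, the de novo DNA methyltransferase of the epiblast, were 6.17-fold and 2.40-fold lower (adjusted p = 0.000176 and 0.000410).

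The core factors POU5F1 and NANOG were not called. POU5F1 (chromosome 6, 31164337 to 31180731, minus strand) stood at 755, 508 and 383 CPM in BA against 526, 504 and 482 CPM in E6 (log2 difference 0.08 ± 0.17 SE, adjusted p = 0.790), above E6 at 30 h and below it at 42 h. NANOG stood at 31.2, 16.05 and 11.2 CPM in BA against 33.3, 25.2 and 19.9 CPM in E6 (log2 difference -0.50 ± 0.18 SE, adjusted p = 0.0958), lower in BA at each hour. Reads of both genes may have been shared with pseudogenes of nearly the same sequence, which leaves their levels uncertain. The 2 list genes called higher were GDF3, a TGF-beta family ligand, at 50.6, 11.2 and 8.01 CPM in BA against 5.14, 4.26 and 3.17 CPM in E6 (4.29-fold, adjusted p = 0.0123, up to 0.0899 with an hour left out), and VRTN (1.53-fold, adjusted p = 0.0119, up to 0.0611). Within E6, POU5F1, LIN28A (1386, 1343 and 1397 CPM) and DNMT3B (1829.6, 1961 and 1425 CPM) were abundant and PAX6 was at 0.964, 1.08 and 0.916 CPM. PAX6 does not stand for its list: the summed level of the neuroectoderm list in E6 was 317.3, 387 and 868.1 CPM. Within it NPTX1 stood at 2.52, 36.7 and 450.3 CPM in E6, while SIX6 went down, at 25.1, 19.6 and 8.58 CPM. POU5F1, LIN28A and DNMT3B were thus present in the E6 libraries, whose label is spontaneous differentiation, beside neural genes of differing course.

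The called neuroectoderm genes were lower in BA, while most of the list was not called. Of 23 genes 17 were tested, 7 were lower, 0 higher and 10 not called (median log2 change -1.52); without the 42 h pair, 8 were lower and 1 higher of 18 tested, and 4 of the 7 calls held with each hour left out. SOX3, a close relative of SOX2 in neural precursors, stood at 0.874, 0.242 and 0.364 CPM in BA against 20.6, 24.6 and 20.996 CPM in E6 (log2 difference -5.43 ± 0.37 SE, adjusted p = 0.000188). SIX6, an eye field homeobox gene, stood at 1.23, 0.424 and 0.243 CPM in BA against 25.1, 19.6 and 8.58 CPM in E6 (log2 difference -4.82 ± 0.28 SE, adjusted p = 0.000115). POU3F1, a POU factor of the epiblast and neural plate, stood at 4.73, 1.57 and 2.55 CPM in BA against 31.8, 32.3 and 22.7 CPM in E6 (log2 difference -3.33 ± 0.31 SE, adjusted p = 0.000586). PAX6 was not called (log2 difference -0.63 ± 0.31 SE, adjusted p = 0.205). OTX2, a forebrain factor that is also in the endoderm list, stood at 30.8, 77.9 and 214 CPM in BA against 35.6, 49.04 and 102 CPM in E6 and was not called (adjusted p = 0.147). In E8 the level of SOX3 was 19.9, 12.3 and 20.8 CPM and that of POU3F1 29.1, 33.8 and 38.4 CPM, above BA at each hour.

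Among other cell types that a culture could hold, markers of neural crest and of blood and endothelium gave no uniform direction. The called fibroblast markers were all higher in BA. Of the neural crest list 7 of 11 genes were tested, 2 higher (MSX1 and SNAI2) and 2 lower (FOXD3 and SOX9), against 4 and 3 without the 42 h pair, and the defining gene SOX10 had 0 counts in all 6 libraries. FOXD3, also a pluripotency factor, stood at 0.874, 0.303 and 0.121 CPM in BA against 16.8, 14.05 and 11.7 CPM in E6 (log2 difference -5.04 ± 0.38 SE, adjusted p = 0.000261). Of the blood and endothelium list 11 of 15 were tested, 3 higher and 4 lower (5 and 4 without the 42 h pair). CDH5 and PECAM1, which define endothelium, were lower in BA (adjusted p = 0.00711 and 0.0493, up to 0.116 and 0.222 with an hour left out), with CDH5 at 1.08, 0.787 and 1.64 CPM and PECAM1 at 0.257, 0.0606 and 0.364 CPM, and GATA1, of red cells, was at 0, 0 and 0.0607 CPM. RUNX1, which marks blood and also early mesoderm, was 5.75-fold higher at 10.03, 8.72 and 6.68 CPM in BA against 1.74, 1.38 and 1.33 CPM in E6 (adjusted p = 0.000387). Of the fibroblast list 8 of 11 were tested, 4 higher and 0 lower (5 and 0 without the 42 h pair), with a median log2 change of 1.31. Its members DCN, LUM and FAP did not pass the filter, with at most 0.360 CPM in any library.

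The largest single rises and falls, among genes averaging at least 10 CPM in the higher medium, were in part members of these lists. Of the 12 largest rises, 11 were in a list, and SAMD11, which encodes a SAM domain protein, was not; it stood at 91.3, 88.2 and 82.8 CPM in BA against 0.0459, 0.180 and 0 CPM in E6 (log2 difference 10.01 ± 0.33 SE, adjusted p = 1.33e-05). Among the 12 largest falls, 8 were in no list. HTR1A, a serotonin receptor gene, stood at 0.103, 0 and 0.121 CPM in BA against 20.3, 18.7 and 4.17 CPM in E6 (log2 difference -7.39 ± 0.54 SE, adjusted p = 0.000248). HES3, a repressor of the HES family, stood at 0.257, 0 and 0.364 CPM in BA against 16.9, 20.05 and 27.7 CPM in E6 (log2 difference -6.63 ± 0.44 SE, adjusted p = 0.000186). CXCL5, which encodes a neutrophil-attracting chemokine, was 30.4-fold lower at 2.93, 2.97 and 2.06 CPM in BA against 86.6, 62.9 and 100.3 CPM in E6 (adjusted p = 5.02e-05). KLHDC7A, ARC (an activity-regulated gene of neurons), GDPD2 (a phosphodiesterase) and ADAMTS8 (a secreted metalloprotease) were 33.5-fold, 22.4-fold, 22.3-fold and 20.4-fold lower (adjusted p = 3.75e-05, 0.000444, 0.000371 and 5.48e-05). All 24 calls held with each hour left out.

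**Figure D3:**
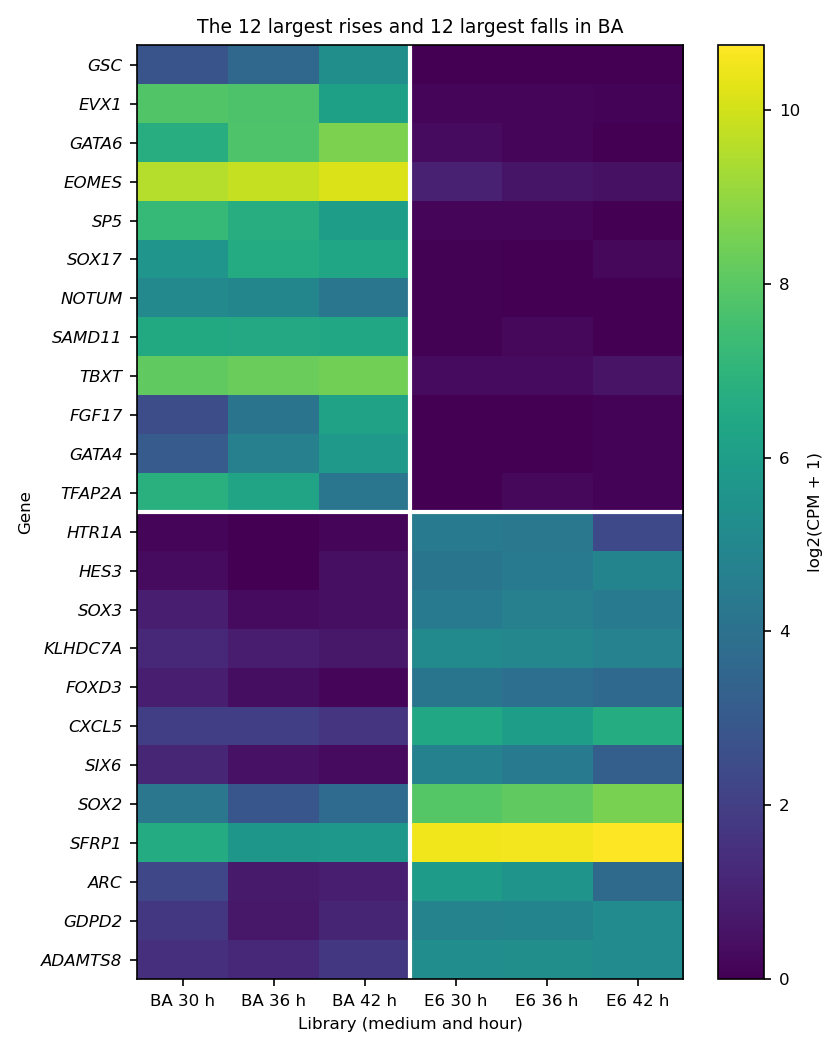
Level of the 12 genes with the largest rises (upper block) and the 12 with the largest falls (lower block) in BA, as log2(CPM + 1) by colour, in the 3 BA and 3 E6 libraries (columns). Colours are to be read along a row. The genes were chosen to have the 3 libraries of 1 medium above the 3 of the other, so that separation is no result. EVX1 and TFAP2A are lower in BA at 42 h than at 30 h.

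Genes of the epithelial to mesenchymal transition, the loss of epithelial junctions that accompanies streak formation, rose on the mesenchymal side. Of 17 mesenchymal genes 16 were tested, 12 higher and 1 lower (median log2 change 1.38, with 13 and 1 without the 42 h pair). With each hour left out in turn 4 of the 13 calls held. Over all genes 1146 of the 3778 calls held without the 36 h pair alone, which is a less strict condition. FN1, which encodes fibronectin, stood at 2256, 3022 and 1298 CPM in BA against 308, 312 and 280.3 CPM in E6 (log2 difference 2.80 ± 0.21 SE, adjusted p = 0.000277). SNAI1 and SNAI2, repressors of E-cadherin, were 7.997-fold and 10.6-fold higher (adjusted p = 0.00265 and 0.00875, up to 0.0833 and 0.147 with an hour left out). The neural cadherin gene CDH2 measured 391, 600.2 and 818 CPM in BA against 277, 253 and 256 CPM in E6 (2.23-fold, adjusted p = 0.00880, up to 0.138). VIM, which encodes vimentin, measured 261, 323 and 282 CPM in BA against 108, 114 and 115 CPM in E6 (2.58-fold, adjusted p = 0.000237).

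The epithelial side depended on the hours used. Of 20 epithelial genes, 8 were called lower and 1 higher, with a median log2 change of -1.14, and without the 42 h pair 11 were lower and 1 higher, with a median of -0.57. None of these 9 calls held with each hour left out in turn. Over all genes 1146 of the 3778 calls held without the 36 h pair alone, a less strict condition. The summed level of the list was 888 to 1488 CPM in BA and 1739 to 1784 CPM in E6. The per-hour median difference was -0.32 at 30 h, -0.68 at 36 h and -1.98 at 42 h. CDH1, the E-cadherin gene, stood at 184, 127 and 22.1 CPM in BA against 117, 123 and 161 CPM in E6 and was not called (log2 difference -0.59 ± 0.64 SE, adjusted p = 0.587); without the 42 h pair its log2 change was 0.37. EPCAM, an epithelial adhesion gene, stood at 62.9, 48.9 and 17.2 CPM in BA against 118, 116 and 125 CPM in E6 (log2 difference -1.62 ± 0.36 SE, adjusted p = 0.0194, up to 0.143 with an hour left out). ESRP1, the epithelial splicing regulator, stood at 85.5, 82.7 and 19.1 CPM in BA against 128, 133 and 139 CPM in E6 (adjusted p = 0.0781). Within BA, the 42 h library was the lowest of the 3 for CDH1, EPCAM, ESRP1, GRHL2 and CLDN7. E8 at 36 h, which also stood apart (238 of 12076 genes more than 2-fold from its neighbours), had CDH1 at 24.2 CPM and ESRP1 at 21.2 CPM, while CDH1 in E8 at 30 and 42 h was 121 and 134 CPM. KRT8, a simple epithelial keratin gene, was the 1 gene called higher (1.51-fold, adjusted p = 0.0123, up to 0.102 with an hour left out).

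**Figure D4:**
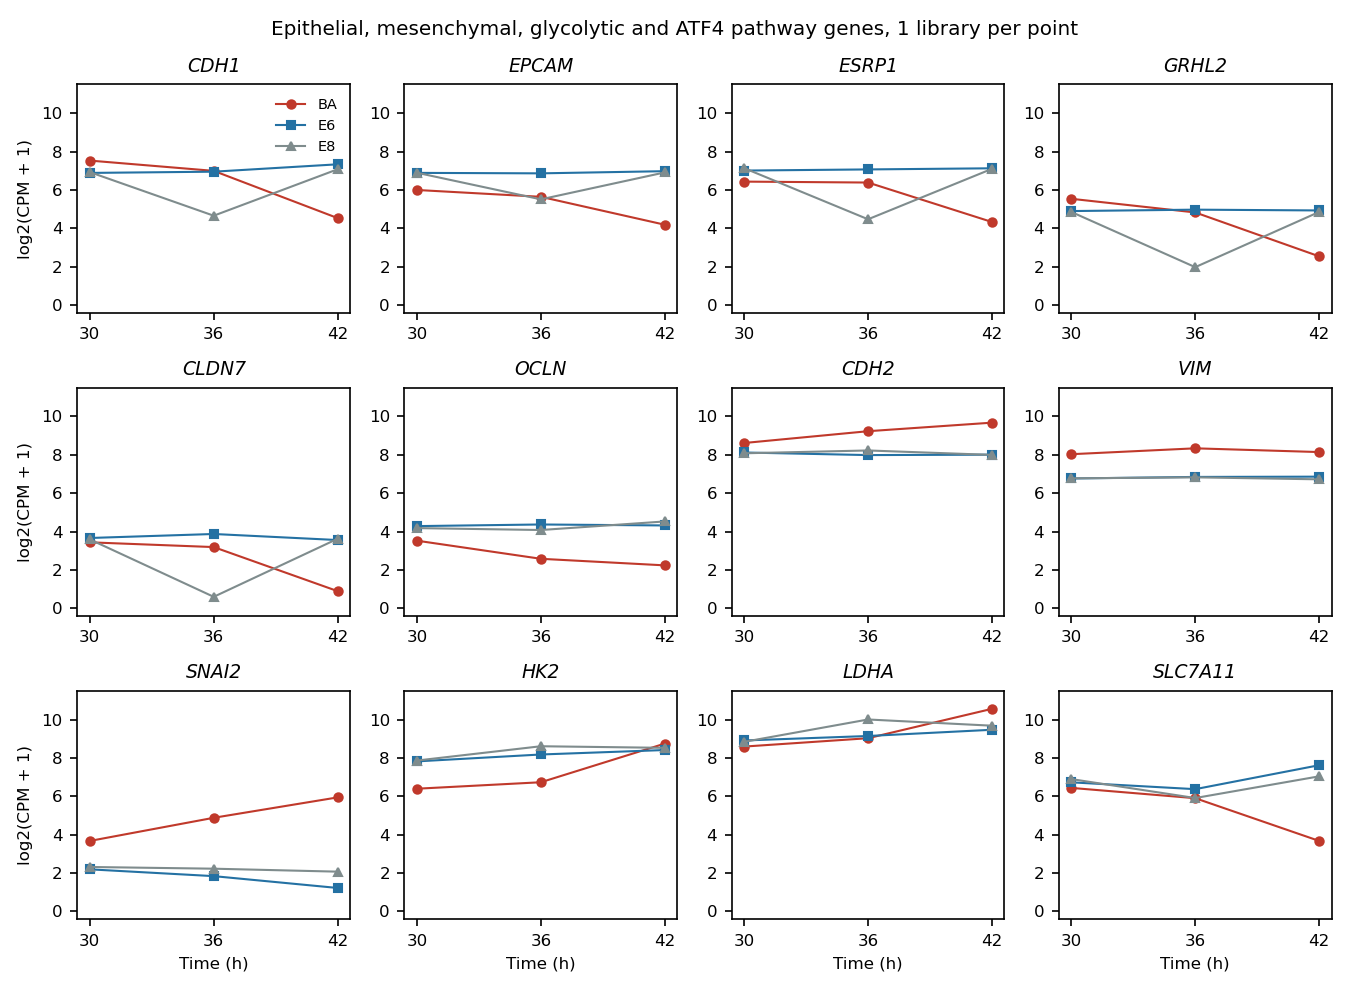
Level of 6 epithelial genes (CDH1, EPCAM, ESRP1, GRHL2, CLDN7, OCLN), 3 mesenchymal genes (CDH2, VIM, SNAI2), 2 genes of glycolysis (HK2, LDHA) and 1 ATF4 target (SLC7A11), as log2(CPM + 1) on the y axis, at 30, 36 and 42 h (x axis) in BA (red circles), E6 (blue squares) and E8 (grey triangles), 1 library per point. BA at 42 h and E8 at 36 h are low for CDH1, ESRP1, GRHL2 and CLDN7, whereas CDH2 and SNAI2 are higher at each later BA hour.

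Matrix genes moved in both directions. Of 18 basement membrane and matrix genes, 8 were higher and 3 lower (8 and 4 without the 42 h pair), with a median log2 change of 0.00. The higher genes were COL5A1, COL5A2, COL6A1, COL6A2 and HAS2, and COL4A5, COL4A6 and LAMB1 of the basement membrane. COL6A1, a collagen VI gene, stood at 858, 1077 and 1234 CPM in BA against 90.5, 96.5 and 107 CPM in E6 (log2 difference 3.43 ± 0.11 SE, adjusted p = 1.33e-05). COL5A2 was 4.36-fold higher (adjusted p = 0.000206). HAS2, the hyaluronan synthase needed for mesoderm migration and heart cushions, stood at 219, 467 and 483 CPM in BA against 15.9, 12.01 and 8.17 CPM in E6 (log2 difference 4.96 ± 0.40 SE, adjusted p = 0.000340). The 3 lower genes also encode basement membrane proteins: NID2 (5.24-fold, adjusted p = 0.000599), COL4A1 (1.83-fold, adjusted p = 0.00752) and COL4A2 (1.80-fold, adjusted p = 0.00455); the calls of COL4A1 and COL4A2 were lost with an hour left out (adjusted p up to 0.0828 and 0.0846). The laminin genes LAMA1, LAMA5 and LAMC1 were not called (adjusted p = 0.627, 0.518 and 0.644).

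Of the Notch list 12 of 18 genes were tested, 3 higher and 2 lower (5 and 4 without the 42 h pair). HEY1, a target shared with BMP signalling, was 7.98-fold higher (adjusted p = 0.00176, up to 0.0633 with an hour left out), and the ligand gene JAG1 2.23-fold lower (adjusted p = 0.00205, up to 0.0585). Of the retinoic acid list 13 of 16 were tested, 6 higher and 3 lower (7 and 5 without the 42 h pair). CYP26A1, the enzyme that degrades retinoic acid, rose to 13.2, 38.7 and 292 CPM in BA against 3.21, 2.82 and 5.08 CPM in E6 (log2 difference 3.96 ± 0.67 SE, adjusted p = 0.00629, up to 0.121 with an hour left out). RDH10, a retinol dehydrogenase that acts in its synthesis, was 4.14-fold higher (adjusted p = 0.000198).

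Lists of general cell state held calls in shares below and above the 22.6% of all genes. Of 18 proliferation genes (5.56% called), CCND2, a G1 cyclin gene, was the 1 called, with or without the 42 h pair (2.36-fold higher, adjusted p = 0.000298); MKI67 stood at 561, 624 and 467 CPM in BA against 566, 625 and 619.7 CPM in E6 (adjusted p = 0.531). The 18 genes had a median log2 change of 0.00, against 0.01 over all genes. Of 14 p53 target and stress genes 3 were higher and 1 lower (28.6% called; 4 and 1 without the 42 h pair), with CDKN1A, the p21 gene, not called (adjusted p = 0.609). Of 18 hypoxia and glycolysis genes tested 3 were higher and 2 lower (27.8% called), but without the 42 h pair 4 were higher and 8 lower. ADM, a hypoxia-induced peptide hormone gene, was lower at each hour, at 5.96, 4.54 and 4.13 CPM in BA against 53.5, 37.5 and 37.2 CPM in E6 (log2 difference -3.11 ± 0.14 SE, adjusted p = 3.92e-05). HK2, a hexokinase gene, stood at 83.4, 106 and 431 CPM in BA against 226, 290.1 and 341 CPM in E6, lower in BA at 30 and 36 h and higher at 42 h (adjusted p = 0.138). Of 15 ATF4 stress genes 1 was higher and 2 lower (20% called; 2 and 2 without the 42 h pair). Of 16 cholesterol synthesis genes 1 was higher and 3 lower (25% called; 1 and 2 without the 42 h pair). In the BA library of 42 h the ATF4 list lay low, as given above.

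A test of the interaction of medium with time asked which BA to E6 differences changed between 30 and 42 h. It called 144 of 16724 genes, 0.861% of those tested, 62 with a change toward BA and 82 toward E6; 1748 genes had an unadjusted p below 0.05. With 3 hours the slope is set by the 30 and 42 h libraries, so each of these changes rests on the BA library of 42 h, which stood apart. The 6 largest called changes toward BA with at least 10 CPM in a library were those of DLL3, MAMLD1, ALPK2, TMEM255A, LZTS1 and CER1. DLL3, a Notch ligand of the presomitic mesoderm, stood at 2.78, 32.9 and 213 CPM in BA against 4.41, 4.74 and 3.75 CPM in E6, so that the log2 difference rose by 6.29 ± 0.43 SE over 12 h (adjusted p = 0.000663). ALPK2, an atypical kinase gene linked to heart development, stood at 2.47, 12.6 and 64.3 CPM in BA against 1.38, 0.840 and 0.916 CPM in E6 (change 5.36 ± 0.52 SE, adjusted p = 0.00254). MAMLD1, a mastermind-like gene, stood at 2.16, 11.3 and 75.02 CPM in BA against 1.06, 0.960 and 0.833 CPM in E6 (change 5.48 ± 0.52 SE, adjusted p = 0.00254). In all 3, BA was higher at each later hour while E6 stayed below 5 CPM.

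The largest changes toward E6 came from different sides. NPTX1, a neuronal pentraxin of early neural induction, was higher in E6 and lower in BA at each later hour, at 2.16, 1.82 and 0.486 CPM in BA against 2.52, 36.7 and 450.3 CPM in E6 (change -9.22 ± 0.52 SE over 12 h, adjusted p = 0.000244). FOXI3, a forkhead gene of preplacodal ectoderm, stood at 50.3, 27.01 and 6.13 CPM in BA against 6.52, 8.46 and 15.2 CPM in E6 (change -4.21 ± 0.50 SE, adjusted p = 0.00729). BMP7, a BMP ligand gene, stood at 55.01, 22.3 and 9.10 CPM in BA against 9.18, 10.1 and 20.1 CPM in E6 (change -3.76 ± 0.37 SE, adjusted p = 0.00277). For FOXI3 and BMP7, BA was the higher medium at 30 and 36 h and the lower at 42 h. FAM20A, LINC01194 and TMEM30B were the other 3, and in TMEM30B E6 stood at 11.1, 9.36 and 10.8 CPM and BA at 8.43, 3.57 and 0.243 CPM. Of the epithelial list 6 genes were called in this test, of the mesoderm list 4 and of the mesenchymal list 3.

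The same contrast was set beside 4 libraries that share nothing with the 6: BA and E6 at 48 h in replicates 2 and 3. There 7623 of 20646 genes were called, 36.9%, with 3784 higher and 3839 lower in BA. Of 3660 genes called at 30 to 42 h and tested in both, 2070 (56.6%) were called the same way at 48 h, 335 were called the opposite way and 1255 were not called; the 2070 are 32.3% of the 6416 genes called at 48 h. Of 2235 genes changed at least 2-fold at 30 to 42 h, 1394 were called the same way and 216 the opposite way. Replicate 1, the set of the 6 libraries, also has 1 BA and 1 E6 library at 48 h, which allow no test and were compared after the other values were seen. There 3494 of the 3660 genes (95.5%) lay on the same side as at 30 to 42 h, among them 285 of the 335 called the opposite way in replicates 2 and 3 (85.1%) and 1186 of the 1255 not called there (94.5%). At 48 h the replicate sets themselves thus differed: the BA level of EOMES was 992 CPM in replicate 1 but 45.3 and 46.6 CPM in the other two, and that of GATA6 was 404 CPM against 7.10 and 5.88 CPM.

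By list, replicates 2 and 3 at 48 h gave the same direction for most streak and all tested BMP target genes. Members near 0 in E6 there too, such as EVX1, EOMES and GATA3, could be tested only where BA was high. For them the same direction was fixed by the filter and is no test. Of 16 streak genes called at 30 to 42 h and tested at 48 h, 15 were called the same way and 1, TBX6, was not called (log2 change -0.05, adjusted p = 0.808); all 17 BMP targets tested there were called the same way. For TBXT the log2 change was 4.80 in replicates 2 and 3 against 9.97 at 30 to 42 h, and its BA level at 48 h was 88.8 CPM in replicate 1 and 28.7 and 24.4 CPM in replicates 2 and 3. Of 11 endoderm genes 7 were called the same way and 4 the opposite way, namely KIT, FLRT3, CXCR4 and HHEX; in replicate 1 at 48 h all 4 were higher in BA, as at 30 to 42 h. Of 11 WNT target genes 8 were called the same way and 2 the opposite way, and LEF1 was not called (log2 change 0.73, adjusted p = 0.0543). AXIN2 was 1 of the 2 (log2 change -0.79, adjusted p = 0.000789), while replicate 1 at 48 h had 42.7 CPM in BA and 29.7 CPM in E6. Of 9 epithelial calls 2 were called the same way and 3 the opposite way. In replicates 2 and 3 at 48 h 10 of 20 epithelial genes were higher in BA and 1 lower. LEFTY1 turned from -2.77 to 5.77 (adjusted p in replicates 2 and 3 = 7.08e-06); in replicate 1 at 48 h its level was 7.41 CPM in BA against 9.96 CPM in E6. CYP26A1 turned from 3.96 to -2.88 (adjusted p = 1.45e-06), while replicate 1 had 261 CPM in BA and 17.9 CPM in E6. SOX3 and FOXD3 were not called in replicates 2 and 3 (log2 differences 0.15 and 0.34, adjusted p = 0.238 and 0.162). In replicate 1 at 48 h both were again low in BA, SOX3 at 0.192 CPM against 19.2 CPM in E6 and FOXD3 at 0.0639 CPM against 11.7 CPM, whereas BA replicates 2 and 3 held SOX3 at 67.9 and 57.6 CPM.

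**Figure D5:**
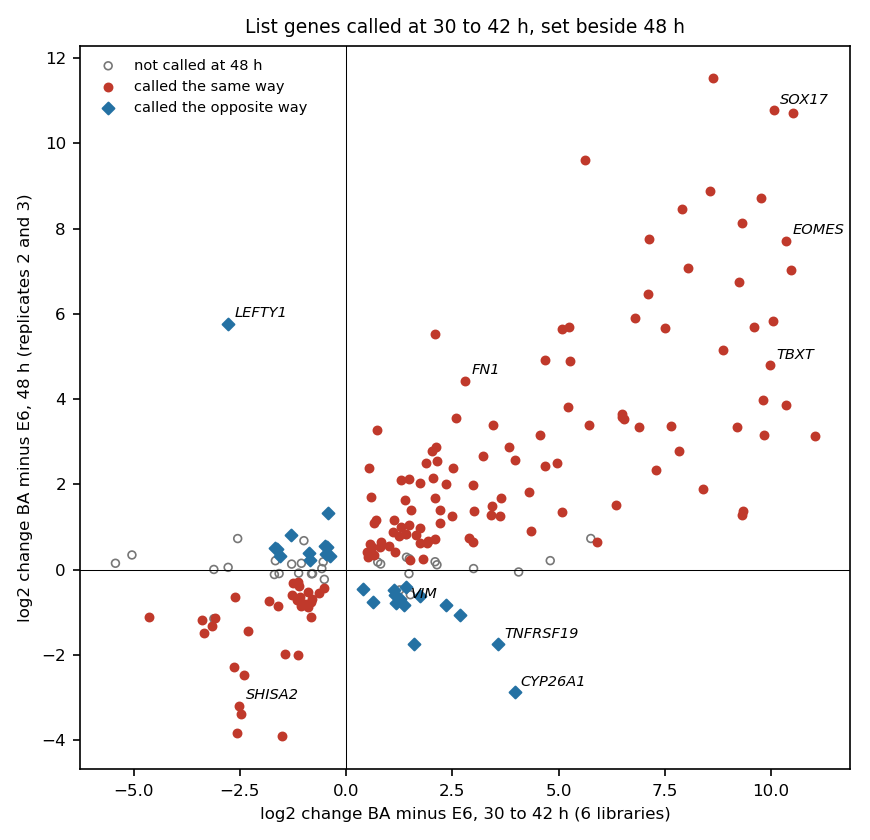
Log2 change from E6 to BA at 30 to 42 h (x axis, 6 libraries) and at 48 h in replicates 2 and 3 (y axis, 4 other libraries) for the 198 list genes called in the first comparison and tested in the second. Of these, 140 were called the same way in replicates 2 and 3 at 48 h (red circles), 26 the opposite way (blue diamonds) and 32 were not called (open circles).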

How the data were processed

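The data are read counts per gene, deposited by the authors as 1 table of whole numbers for 58581 genes and 35 libraries, whose name cites GENCODE release 23. Per the submitters' processing notes, featureCounts, DESeq2 and hg38 were used; the aligner and the strand setting are not given in the sources used here, so a gene and an antisense partner (as for GATA6, EVX1 and FOXD3) cannot be told apart, and reads of near-identical copies may be split. All columns matched a labelled sample (0 unmatched).

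From the counts, edgeR 4.0.16 (with limma 3.58.1, R 4.3.3) fitted the quasi-likelihood model to the 6 libraries with TMM factors, filterByExpr by medium, the hour as a factor and the medium; this leaves 2 residual degrees of freedom, moderated with a prior of 4.7. P-values were adjusted over all 16724 tested genes by Benjamini-Hochberg and called below 0.05. The change over time was the interaction of medium with hour as a number. The 48 h libraries of replicates 2 and 3 were fitted separately, without a block: across genes the replicate 2 minus 3 differences in BA and E6 had a correlation of 0.0444. SE were computed from the test, as the size of the fitted log2 change over the square root of its F statistic. For a gene with few counts in 1 medium, such an SE can lie below the counting error and overstates the precision. CPM used TMM factors over all 35 libraries, per-hour differences 1 CPM as a pseudocount. A medium with 0 counts took a floor of 3 counts over its libraries; with 1 to 3 counts, the ratio of pooled CPM is given with its exact 95% interval, which covers counting error only. The scripts were tested on simulated data.

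Named were the 12 largest called rises and falls with at least 10 CPM in the higher medium and no overlap, up to 6 called genes of each list with its defining members, the 6 largest changes over time in each direction, and 11 markers; a few further list members were chosen after their values were seen, and a few that the rule names are not reported here. The members and lists were chosen with earlier results of these data known. Positions are from GENCODE release 29 on GRCh38, promoters from RefSeq. The alternatives were other size factors, no filter, DESeq2 1.42.0, other time terms, other libraries and each hour or library left out.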

Additional observations from a re-analysis of the deposited data

Results flagged for a closer look

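The test of medium by time found that the difference between BA and E6 changed between 30 and 42 h in 144 genes, and 12 of these are given here by the size of the change over 12 h on the log2 scale. Toward BA, DLL3 changed by 6.29, MAMLD1 by 5.48, ALPK2 by 5.36, TMEM255A by 4.80, LZTS1 by 4.66 and CER1 by 4.41. Toward E6, NPTX1 changed by -9.22, FOXI3 by -4.21, FAM20A by -4.11, LINC01194 by -4.04, TMEM30B by -4.03 and BMP7 by -3.76. Each value is the slope of the log2 difference in edgeR's fit, and each is past an adjusted p of 0.05. The BA library of 42 h, in which 368 of 12076 genes lay more than 2-fold from the libraries of 36 and 48 h, sets the end of every one of these slopes, and its part in them was not tested.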

How the results depend on the processing

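The count of 3778 called genes lay between 3476 and 5186 with other size factors, no filter, DESeq2, other time terms, E8 in the fit or the hours 24 to 48 h. With an hour or a library left out it ranged from 1154 to 4609, the higher part from 728 to 2438 and the lower part from 426 to 2171; each lowest value was that without the 36 h pair. The fit without 42 h has 1 residual degree of freedom and found no spread of the variance between genes, so its p-values are not printed. The interaction count of 144 was 150 with the other size factors, 828 with no filter and 719 over 24 to 48 h; the cause was not tested. At 48 h the count of 7623 was 7591 with the replicate block, 7647 with the other size factors and 5410 to 8962 with 1 library left out, where the lone library is assumed to vary like the others. The 30 to 42 h media share 1 replicate number, so only the hour pairs them.

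Of 2237 values of 140 named genes under these alternatives, 2066 kept direction and side of the threshold, 71 lost the call, 74 gained one and 26 changed sign. The sign changes were all in 10 genes that were not called, and none was called with the other sign. With an hour or a library left out, the log2 change ranged from -1.37 to 0.37 for CDH1, from -0.57 to 0.94 for LEFTY2, from -0.16 to 0.29 for POU5F1, from -0.24 to 0.031 for TDGF1 and from -1.13 to 0.33 for TBX5. It ranged from -0.054 to 0.15 for ACVR2B, from -0.097 to 0.81 for CDKN1A, from -0.22 to 0.041 for LAMA1, from -0.56 to 0.033 for LAMA5 and from -0.22 to 0.031 for MKI67. The values of CDH1, LEFTY2, TBX5, ACVR2B, LAMA5 and MKI67 changed sign without the 42 h pair, and those of POU5F1, CDKN1A, LAMA1 and TDGF1 without the 30 h pair. Over 24 to 48 h the log2 change was -0.0027 for POU5F1, 0.040 for LAMA1 and 0.20 for TBX5, and with no time term it was 0.092 for TBX5. With 1 library per medium and hour, differences near 0 could not be placed on either side.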

Other observations

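By kind of transcript, 25.2% of 13158 tested protein-coding genes were called between BA and E6 at 30 to 42 h, 18.8% of 533 long noncoding genes (49 higher and 51 lower in BA) and 6.99% of 973 pseudogenes; 1989 tested genes had no kind in the annotation used. In E8, the 42 h library held more of some streak genes than the libraries of 30 and 36 h: EOMES stood at 0.504, 0.572 and 3.65 CPM, MIXL1 at 0.908, 1.21 and 4.41 CPM, CER1 at 4.99, 3.43 and 15.7 CPM, and APLNR, a receptor of early mesoderm, at 4.39, 5.28 and 14.1 CPM. All 4 were far below their BA levels at 42 h. There is 1 E8 library at each hour, so these differences have no replicate check. Among genes called in opposite directions at 30 to 42 h and in replicates 2 and 3 at 48 h, LMX1B, a LIM homeobox gene, had log2 changes of 5.04 and -4.58 (edgeR adjusted p = 0.000552 and 0.00359), and the potassium channel gene KCNA5 had 3.54 and -3.59 (adjusted p = 0.0109 and 0.000164). LMX1B and KCNA5 were chosen after their values were seen.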
